A study of Mus musculus with 7 samples.

Results

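Bcl11b, Runx1, Gata3 and Ebf1 encode transcription factors of blood cell lineages, and the chromatin around each of them was examined for H3K27me3, trimethylated lysine 27 of histone H3, in mouse liver. The members were the islands, that is, the called stretches of enriched chromatin, that overlapped 4 windows of the genome build mm9. The windows were chromosome 12 from 107550000 to 109250000 (Bcl11b and its flank), chromosome 16 from 92600000 to 93600000 (Runx1), chromosome 2 from 9700000 to 9900000 (Gata3) and chromosome 11 from 44400000 to 44850000 (Ebf1). Of 122262 islands in 7 lists, 375 overlapped a window: 229 for Bcl11b, 89 for Runx1, 23 for Gata3 and 34 for Ebf1. The windows were selected on the width and cover of islands in these same lists, so width, cover and score level are given below as a description. The rule names no difference between treated and control livers, but the 4 genes were picked with results of these livers known.

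The livers came from male CD-1 mice, an outbred stock, at 7 weeks of age, with 1 list for each animal. TCPOBOP, a ligand of the constitutive androstane receptor (CAR) in mouse liver, was given to 4 mice at 3 mg/kg, and 3 mice received the vehicle of 1% DMSO in corn oil. All livers were collected after 27 h. The comparison asked whether the CAR ligand changed the repressive mark. Chromatin came from whole liver, so fewer cells that carry the mark and less of the mark in each cell cannot be told apart. The lists hold no expression values, and neither the tissue nor the silence of the genes could be checked against markers.

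H3K27me3 is deposited by Polycomb repressive complex 2, which keeps developmental regulators silent in cells of other lineages and is often recruited to stretches rich in CG dinucleotides. Runx1 is the DNA-binding subunit of a core-binding factor needed for the emergence of blood stem cells. Bcl11b, a zinc finger protein, is required for commitment to the T cell lineage. Gata3, a GATA family zinc finger protein, acts in T cell development and in T helper type 2 cells. Ebf1 specifies the B cell lineage. None of these is a defining factor of hepatocytes.

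The sequences before the annotated starts are shown because CG content is a feature that the choice of windows did not use. RefSeq (GRCm38.p6) held 6 starts for the 4 genes. The 250 bases before 5 of them are printed 5′ to 3′ on the gene's strand, with each CG in capitals.
Bcl11b (chromosome 12, minus strand): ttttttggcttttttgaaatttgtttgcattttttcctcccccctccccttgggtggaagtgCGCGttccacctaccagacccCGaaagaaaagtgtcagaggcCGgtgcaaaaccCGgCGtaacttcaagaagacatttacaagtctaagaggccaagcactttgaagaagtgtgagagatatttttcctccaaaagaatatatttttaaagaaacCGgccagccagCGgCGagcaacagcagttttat
Runx1, first start (chromosome 16, minus strand): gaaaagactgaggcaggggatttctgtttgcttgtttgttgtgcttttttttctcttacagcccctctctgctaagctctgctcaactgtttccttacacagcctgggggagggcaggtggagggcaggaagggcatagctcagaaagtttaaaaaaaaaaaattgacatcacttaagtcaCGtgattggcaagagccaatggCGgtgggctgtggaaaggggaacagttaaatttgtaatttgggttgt
Runx1, second start (chromosome 16, minus strand): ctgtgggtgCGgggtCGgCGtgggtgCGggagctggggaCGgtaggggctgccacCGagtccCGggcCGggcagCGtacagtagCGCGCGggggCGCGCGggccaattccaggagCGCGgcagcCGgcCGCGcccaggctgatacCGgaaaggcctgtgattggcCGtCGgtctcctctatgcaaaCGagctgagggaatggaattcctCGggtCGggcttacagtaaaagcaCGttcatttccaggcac
Gata3 (chromosome 2, minus strand): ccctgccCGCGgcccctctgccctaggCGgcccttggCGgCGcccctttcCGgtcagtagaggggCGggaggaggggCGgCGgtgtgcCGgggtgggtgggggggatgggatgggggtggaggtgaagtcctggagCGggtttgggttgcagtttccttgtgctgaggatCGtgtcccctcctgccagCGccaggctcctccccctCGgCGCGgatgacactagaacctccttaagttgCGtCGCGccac
Ebf1, first start (chromosome 11, plus strand): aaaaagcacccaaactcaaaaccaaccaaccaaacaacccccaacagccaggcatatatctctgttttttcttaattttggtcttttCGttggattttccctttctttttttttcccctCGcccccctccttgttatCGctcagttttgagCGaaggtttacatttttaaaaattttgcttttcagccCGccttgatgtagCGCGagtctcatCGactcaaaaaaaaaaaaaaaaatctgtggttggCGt

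The second start of Runx1 had 27 CG dinucleotides in these 250 bases, and 8.56% of 32851 mouse promoters of the same length had as many. Gata3 had 19 (19.7% of promoters had as many), the second start of Ebf1 had 14 (29.4%), and Bcl11b and the first start of Ebf1 had 9 each (40.3%). The first, more distal start of Runx1 had 2, fewer than the median of 6, and 81.2% of promoters had as many. CG was counted on 1 strand because it reads the same on both. Gene positions in mm9 were not in the sources used here, so no island is placed on a promoter, exon or intron. By RefSeq gene order, the nearest protein-coding genes were Gm52008 and Setd3 beside Bcl11b, Clic6 and Setd4 beside Runx1, Celf2 and Taf3 beside Gata3, and Rnf145 and Clint1 beside Ebf1.

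The 4 windows did not all hold wide domains. In Ebf1 the widest island of a liver spanned 154 to 251 kb after TCPOBOP and 133 to 309 kb with vehicle, and in Runx1 144 to 281 kb after TCPOBOP and 156 to 218 kb with vehicle. Those of the Gata3 window were 52.8 to 56.8 kb with TCPOBOP and 49.2 to 71.2 kb with vehicle, narrower than in the other 3 windows although above the median island of a list (20.8 to 31.2 kb). The Bcl11b window was broad only as a chain: each liver had 23 to 40 islands there. Their median width in a liver was 25.8 to 44.4 kb with TCPOBOP and 28.8 to 52.0 kb with vehicle. The widest island measured 110 to 154 kb with TCPOBOP and 123 to 218 kb with vehicle. The island of 218 kb, in vehicle replicate 2, lay almost wholly outside the window. The widest island fully inside the window in that liver measured 160 kb. With that island in its place, the vehicle range was 123 to 173 kb. The map of islands along the 4 windows shows these 4 shapes.

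**Figure D1:**
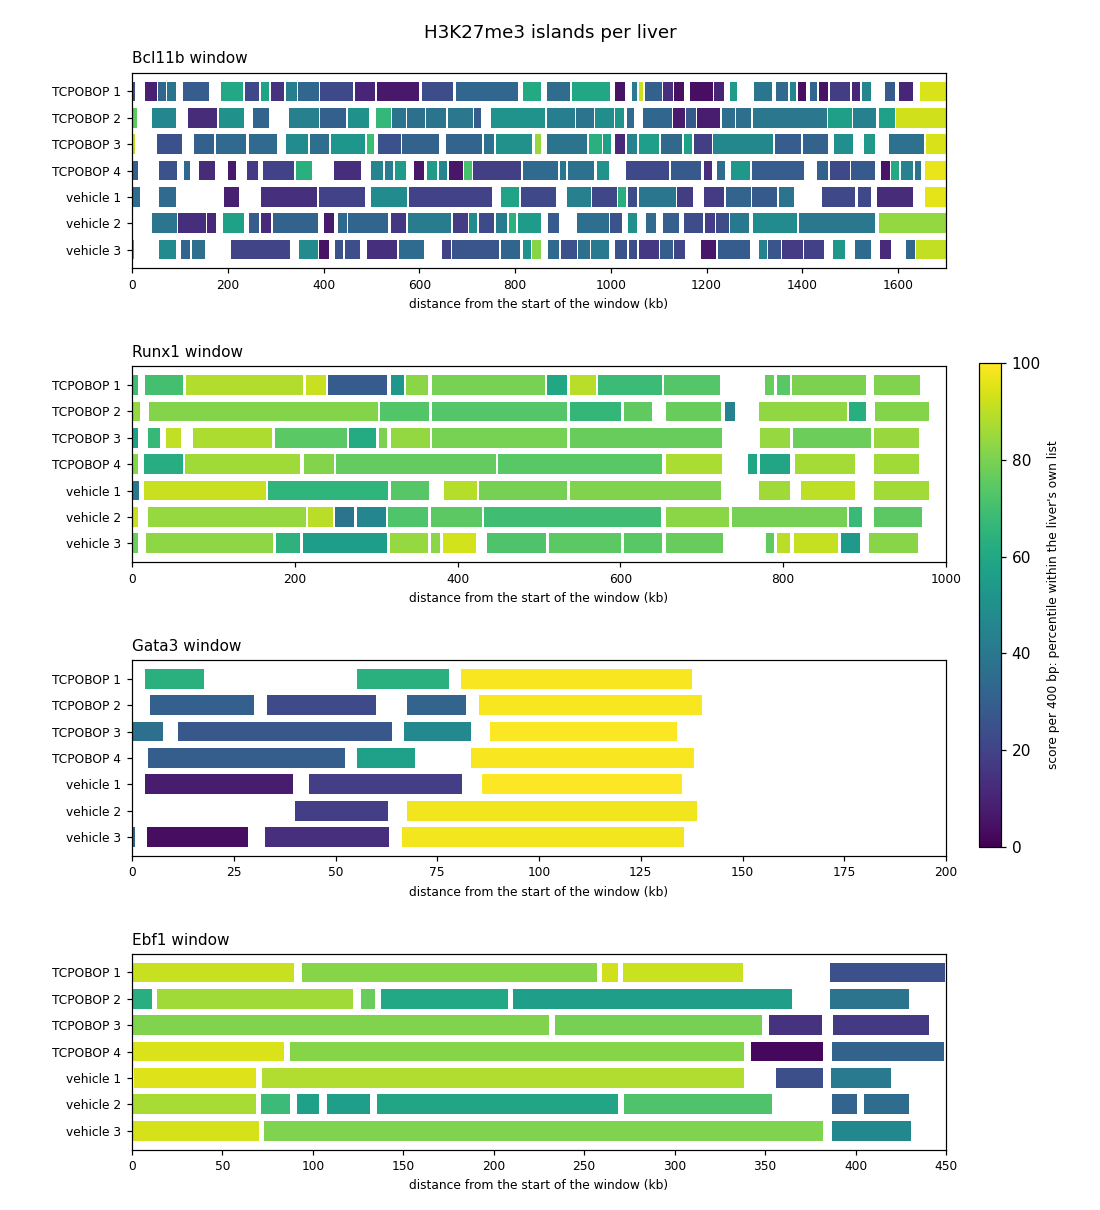
Islands of each liver along the 4 windows, with distance from the start of the window in kb on the x axis and 1 row per liver, TCPOBOP above vehicle. Colour gives the percentile of the island's score per 400 bp within its own list. Bcl11b is a chain of 23 to 40 mostly thin islands with a dense island at its right end, Gata3 has 1 dense island, and Runx1 and Ebf1 are near-continuous.

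Values are described gene by gene below, and the score of an island is the authors' own. It grows with island width and with the number of reads, which the files do not give, so depth is unknown. Apart from a ranking of long regions near the end, scores were set only against other islands of the same list. Score percentile means the percent of islands of that list with a lower score. Density means score per 400 bp, the window in which reads were counted, and its percentile was taken the same way. Vehicle replicate 1 had the fewest islands, 14167, and TCPOBOP replicate 1 the most, 20550, and total cover per list ran from 537 to 605 Mb.

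The Runx1 window was under dense islands for most of its length. Islands covered 85.4, 89.0, 85.5 and 87.6% of its window in TCPOBOP replicates 1 to 4, against 85.6, 91.4 and 83.9% in vehicle replicates 1 to 3. The groups overlapped, and their means were 86.8 ± 1.74% (SD, n = 4) with TCPOBOP and 87.0 ± 3.91% (SD, n = 3) with vehicle, a difference of -0.12 percentage points (two-sided exact permutation test, p = 0.943). Vehicle replicate 2 was the highest, and without it the difference was 2.08 points. Of the 89 islands, 5 were less dense than the median of their own list, and the median density percentile was 77.6.

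The Runx1 window held 16, 11, 13 and 11 islands in TCPOBOP livers and 10, 12 and 16 in vehicle livers (difference 0.0833, exact permutation p = 1). Their breaks were mostly short: 48 of 82 (58.5%) measured 4 kb or less, and 2.8 kb was the shortest in any list, since the authors' calls bridged gaps of up to 2400 bp. A long break recurred on chromosome 16 from 93324801 to 93370800, a stretch of 46.0 kb in which each base was uncovered in at least 5 livers. The break that overlapped it was the longest of the window in 6 livers, at 54.8, 30.4, 47.6 and 32.0 kb in TCPOBOP livers and 46.0 and 52.4 kb in vehicle replicates 1 and 3. Vehicle replicate 2 had a break of 3.6 kb there, and its longest, 14.8 kb, lay elsewhere.

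The right edge of the Runx1 domain fell in a similar place in each liver. The last island ended between 93566000 and 93579200 in all 7 livers, a spread of 13.2 kb, and the next island began 96.8 to 110 kb farther on. The left side had no such border, because the nearest island outside lay 2.8 to 5.6 kb away. A break from 92607601 to 92616000 was open in at least 5 livers, and an island ended within 1 window of 92607600 in 6 of 7 livers. Of 171 island edges in the window, 3 (1.75%) recurred in 6 or 7 livers, against 3.69% of 244524 edges over the genome.

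Of the 3 measures compared in the Runx1 window, the score percentile separated the groups. Its best island had score percentiles of 99.2, 99.6, 98.9 and 99.0 in TCPOBOP livers (ranks 171, 68, 204 and 179) and 98.7, 98.9 and 98.8 in vehicle livers (ranks 189, 183 and 208). All TCPOBOP percentiles lay above all vehicle percentiles, by 0.377 points on average (exact permutation p = 0.0571, where 0.0286 is the smallest p that 7 livers allow). Among 6624 merged regions with islands in all livers, 3.89% had percentiles above in the same way and 0.528% below. The number of islands in a region separated the groups in 1.18% of these regions upward and 0.136% downward, but not in the Runx1 window. The ranks themselves overlapped. The number of islands in a list, which enters the percentile, was 16481 to 20550 with TCPOBOP and 14167 to 17852 with vehicle, and its part in the result was not tested. By density instead of score the difference was -3.82 points (exact permutation p = 0.2).

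Ebf1 had the highest mean cover of the 4 windows in both groups. Islands spanned 86.6, 87.7, 94.8 and 96.8% of the window in TCPOBOP replicates 1 to 4 and 87.4, 83.2 and 94.0% in vehicle replicates 1 to 3. The groups overlapped, at 91.5 ± 5.07% (SD, n = 4) with TCPOBOP and 88.2 ± 5.42% (SD, n = 3) with vehicle, a difference of 3.29 points (exact permutation p = 0.457). There were 5, 6, 4 and 4 islands in TCPOBOP livers and 4, 8 and 3 in vehicle livers (difference -0.25, exact permutation p = 1). Vehicle replicate 2 had the most islands, and without it the difference in number was 1.25.

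The left edge of the Ebf1 domain fell in a similar place in each liver. Its first island began between 44390801 and 44401201, a spread of 10.4 kb. In 6 livers the 59.2 to 69.6 kb before it were free of islands, and in TCPOBOP replicate 1 a neighbour lay 3.6 kb away. A break from 44782001 to 44786400 was open in at least 5 livers along its whole length. Islands before it were denser than their list's median, except for short ones next to it in TCPOBOP replicates 3 and 4 and vehicle replicate 1. The domain ended in a thin tail after the break, with density percentiles of 16.4 to 38.2 with TCPOBOP and 31.7 to 46.8 with vehicle. The densest island of the window was the first one in TCPOBOP replicates 3 and 4 and in all vehicle livers. No island followed the tail for 281 to 448 kb.

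The thin tail of Ebf1 had uneven cover. Its merged region, from 44786001 to 44849200, was covered to 100, 69.0, 84.2 and 97.5% in TCPOBOP livers and to 52.5, 61.4 and 69.0% in vehicle livers. The limits of this region are those of the island in TCPOBOP replicate 1. The 100% of that liver was thus fixed by the merging, and the other livers were measured against its island. The groups touched at 69.0%, where TCPOBOP replicate 2 and vehicle replicate 3 had the same cover. The means were 87.7 ± 14.3% (SD, n = 4) with TCPOBOP and 61.0 ± 8.24% (SD, n = 3) with vehicle, a difference of 26.7 points (SE 11.7, limma adjusted p = 1, unadjusted p = 0.0259). In the main part of the domain, from 44390001 to 44782000, cover was 91.9 ± 4.81% (SD, n = 4) with TCPOBOP and 92.2 ± 4.65% (SD, n = 3) with vehicle (difference -0.298 points, SE 4.45, limma adjusted p = 1).

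The best Ebf1 island stood high in every list, with score percentiles of 99.2, 96.8, 99.4 and 99.5 in TCPOBOP livers and 99.6, 94.4 and 99.8 in vehicle livers. It ranked 40 in vehicle replicate 3, where a single island of 309 kb covered most of the window. The lowest value of each group belonged to replicate 2, whose windows were split into 6 islands with TCPOBOP and 8 with vehicle. The groups overlapped, with a difference of 0.793 points (exact permutation p = 0.714), which turned to -0.962 when vehicle replicate 2 was left out.

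The Gata3 window held a compact and dense island in each liver. It began between 9766401 and 9788001, ended between 9834000 and 9840000, and measured 56.8, 54.8, 46.0 and 54.8 kb in TCPOBOP livers and 49.2, 71.2 and 69.2 kb in vehicle livers. Its density percentile was 98.9, 99.1, 99.6 and 98.8 with TCPOBOP and 99.2, 98.0 and 98.2 with vehicle, the highest of the 4 windows in every liver. A core of 46.0 kb from 9788001 to 9834000 was under islands in all 7 livers. The right edge varied by 6.0 kb, and after it no island was called for 330 to 377 kb.

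Left of the dense Gata3 island lay less dense islands whose number and position varied. Their density percentiles ran from 22.5 to 63.4 in TCPOBOP livers and from 3.38 to 31.9 in vehicle livers. Cover of the window was 47.0, 60.8, 61.4 and 58.8% in TCPOBOP livers and 61.6, 47.0 and 62.6% in vehicle livers. These values are limited by the right end of the window, from 9840001 to 9900000. That stretch of 60 kb, 30% of the window, held no island in any liver. TCPOBOP replicate 1 and vehicle replicate 2 were low: TCPOBOP replicate 1 had a break of 37.6 kb, and the first island of vehicle replicate 2 began at 9740001. Mean cover was 57.0 ± 6.76% (SD, n = 4) with TCPOBOP and 57.1 ± 8.73% (SD, n = 3) with vehicle (difference -0.0667 points, exact permutation p = 0.943). Single livers turned its direction: the difference was 3.27 points without TCPOBOP replicate 1, 2.2 without vehicle replicate 1 and 2.7 without vehicle replicate 3. It was -5.1 points without vehicle replicate 2. With only the islands above the median score of each list it was 11.3 points (exact permutation p = 0.2).

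The number of Gata3 islands was 3, 4, 4 and 3 with TCPOBOP and 3, 2 and 4 with vehicle (difference 0.5, exact permutation p = 0.657). The dense island was also the best-scored one in each liver, at score percentiles of 98.1, 97.7, 97.2 and 97.7 with TCPOBOP and 95.5, 98.0 and 98.2 with vehicle. The difference was 0.451 points (exact permutation p = 0.771). Vehicle replicate 1, the lowest, came from the list with the fewest islands and the largest median width, and the difference was -0.405 when that liver was left out.

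**Figure D2:**
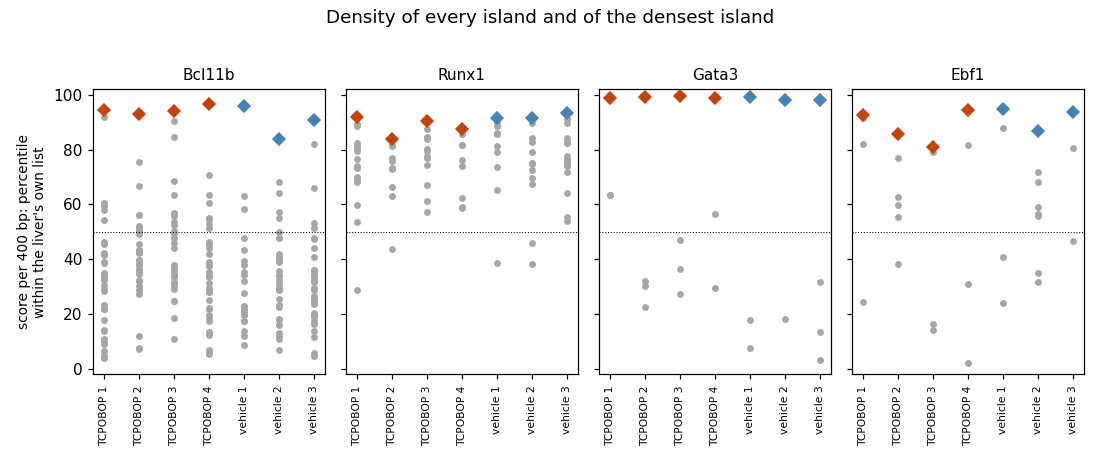
Density of islands in each window, as the percentile of score per 400 bp within the liver's own list (y axis), for TCPOBOP replicates 1 to 4 left of vehicle replicates 1 to 3. Grey points are the islands of a window, the diamond is its densest island, and the dotted line is the median of the list. The Gata3 diamonds lie at 98.0 or above, while most Bcl11b points lie below the line.

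The Bcl11b window held a long row of mostly thin islands. Of its 229 islands, 181 (79.0%) were less dense than the median of their own list, and the median density percentile was 33.7. The last island was the densest of the window in all 7 livers. It ended between 109257200 and 109270400, past the limit of the window, and measured 70.0, 120, 61.2 and 58.0 kb in TCPOBOP livers and 64.0, 148 and 78.4 kb in vehicle livers. Its density percentile was 94.5, 93.0, 94.1 and 96.7 with TCPOBOP and 96.0, 83.8 and 90.8 with vehicle, and the groups overlapped. It was 2.16 to 2.94 times as dense as the median of the other islands of the same liver with TCPOBOP and 2.16 to 2.55 times with vehicle.

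Cover of the Bcl11b window was 81.6, 85.2, 84.0 and 76.8% in TCPOBOP replicates 1 to 4, against 76.2, 84.2 and 74.6% in vehicle replicates 1 to 3. Vehicle replicate 2 lay among the higher TCPOBOP livers, so the groups overlapped. The means were 81.9 ± 3.70% (SD, n = 4) with TCPOBOP and 78.4 ± 5.14% (SD, n = 3) with vehicle, a difference of 3.55 points (exact permutation p = 0.286). In base pairs this was 1392 ± 63.0 kb with TCPOBOP and 1332 ± 87.4 kb with vehicle, of the 1700 kb window.

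The chain had 40, 31, 31 and 36 islands in TCPOBOP livers and 23, 32 and 36 in vehicle livers, a difference of 4.17 (exact permutation p = 0.457). TCPOBOP replicate 1 had the most islands both in the window and in the whole list, and vehicle replicate 1 had the fewest in both. Per 1000 islands of the list the counts were 1.86 ± 0.131 (SD, n = 4) with TCPOBOP and 1.87 ± 0.213 (SD, n = 3) with vehicle (difference -0.00305, exact permutation p = 0.943). Without vehicle replicate 1 the difference in islands was 0.5, and without vehicle replicate 3 it was 7. The part of list size in the number of islands was not tested.

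Breaks in the Bcl11b chain were numerous and rarely in the same place. Of 222 breaks, 116 (52.3%) measured 4 kb or less. The longest break of a liver was 34.4, 41.2, 44.8 and 45.2 kb with TCPOBOP and 99.6, 38.8 and 54.4 kb with vehicle, that of vehicle replicate 1 being the longest of all. Stretches uncovered in at least 5 livers numbered 13 and came to 82.4 kb, of which the longest, from 107560401 to 107592800, was 32.4 kb. Of 444 island edges, 334 (75.2%) had no counterpart within 1 window of 400 bp in another liver, against 52.7% of edges over the genome, and 0 recurred in 6 or 7 livers. A break from 109102401 to 109109600 was open in at least 5 livers along its whole length.

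The best Bcl11b island had score percentiles of 97.1, 98.5, 95.0 and 96.1 in TCPOBOP livers and 94.9, 98.2 and 96.3 in vehicle livers, a difference of 0.215 points (exact permutation p = 0.83). The difference turned to -0.38 points without TCPOBOP replicate 2 and to -0.562 without vehicle replicate 1. It was the dense last island in TCPOBOP replicates 1, 2 and 4 and in vehicle replicate 3. In vehicle replicate 2 it was an island of 218 kb of which only 1.1% lay inside the window. With islands at least 50% inside, the last island took its place and the difference was 0.321 points (exact permutation p = 0.771). That island shows the limit of the choice by overlap: on the same side, the nearest islands that did not reach the window lay 2.8 to 3.6 kb beyond the first island of each liver.

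**Figure D3:**
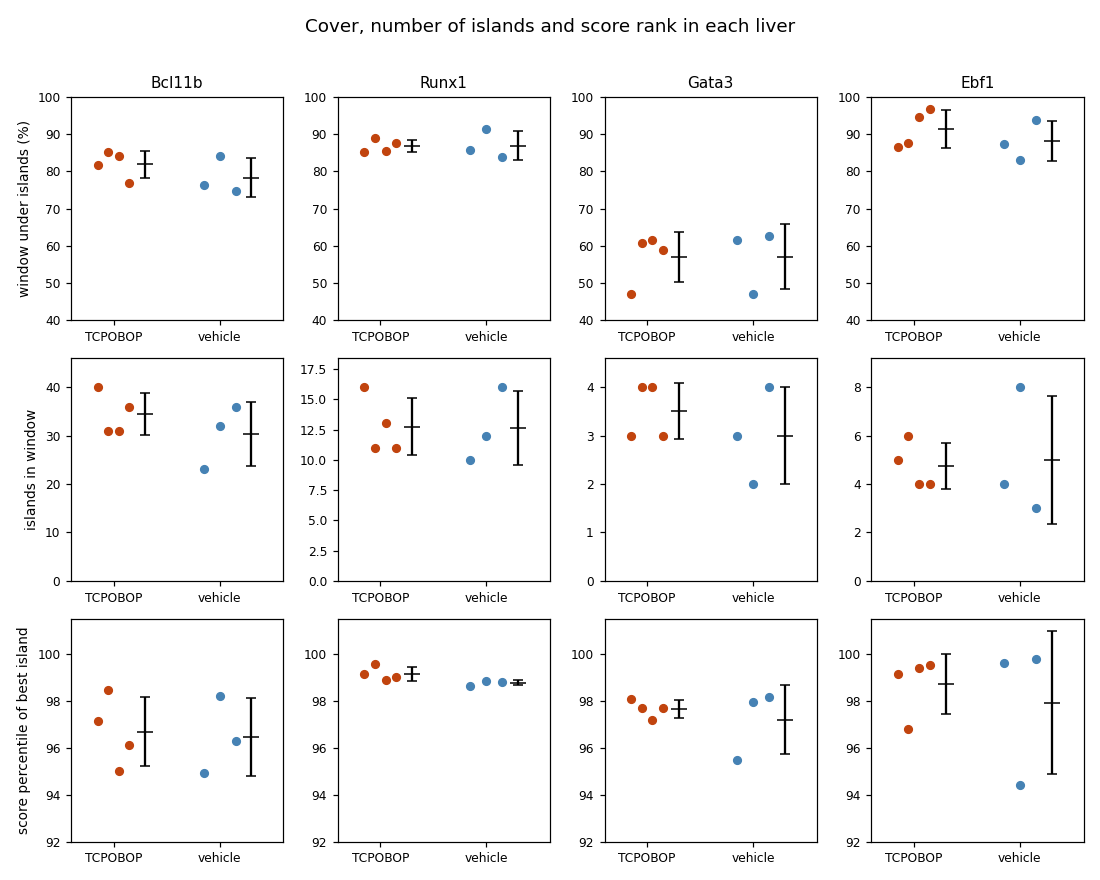
Cover of the window in percent (top), number of islands (middle) and score percentile of the best island within its list (bottom) for each liver, TCPOBOP left of vehicle in each panel. Points are livers, and bars give the mean and SD (n = 4 and n = 3). The groups overlap in each panel but the score percentile of Runx1, and the axes of cover and percentile do not start at 0.

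Across the 4 windows, 12 group comparisons were made (cover, number of islands and score rank in each), and 0 had an unadjusted exact permutation p under 0.05. The lowest was 0.0571. For the whole lists, islands were merged into 17394 regions, of which 8 overlapped a window, all 8 with islands in all 7 livers. Limma on the cover of 13988 regions called 0 regions (0%) at an adjusted p under 0.05 and 542 (3.87%) at an unadjusted p under 0.05. Among the 8 regions of the windows, the tail of Ebf1 alone had an unadjusted p under 0.05. In 0 of the 8 did cover separate the groups, against 1.8% of regions with all TCPOBOP livers above and 1.65% with all below. The median standard error of a region's difference was 24.0 points, and those of the 8 regions ran from 4.45 to 12.3 points, and the count of 0 calls does not show that cover was the same. A simulation took the cover values of these livers. In 200 regions covered over 50% in every liver, it set the cover of all TCPOBOP livers to 0. The same fit called 0 of these regions, so even a complete loss could be missed. The emptied values had no spread, unlike those of real livers. With small, even noise in place of the livers' values, the fit did find regions set to differ by 50 points. That noise was much smaller than the spread of a typical region in these livers. The outcome therefore does not show what the fit can find in them.

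The longest merged regions of the windows gave differences smaller than their standard errors. The Bcl11b region, 107577201 to 109103600, averaged a cover of 82.8% with TCPOBOP and 78.8% with vehicle (difference 3.99 points, SE 8.95, limma adjusted p = 1). The Runx1 region, 92614801 to 93579200, averaged 89.2% with TCPOBOP and 89.4% with vehicle (difference -0.152 points, SE 5.26, limma adjusted p = 1). The Gata3 region, 9602401 to 9840000, reaches left of its window, and cover there averaged 78.5% with TCPOBOP and 80.3% with vehicle (difference -1.77 points, SE 10.1, limma adjusted p = 1).

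Stretches held by 1 treatment only were short. The length under islands in all 4 TCPOBOP livers and no vehicle liver was 4.4 kb in Bcl11b (0.261% of its covered length), 1.2 kb in Ebf1 (0.27%) and 0 kb in Runx1 and Gata3, against 0.25% over the genome. The longest of these, 2.8 kb from 107703601 to 107706400 on chromosome 12, lay in the Bcl11b window. No length in any window was under islands in all vehicle livers and in no TCPOBOP liver, against 0.209% over the genome.

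The windows differed in how much of their length the livers shared. Of the length under an island in any liver, 73.3% was shared by all 7 livers in Runx1 and 72.0% in Ebf1, while Gata3 shared 37.7% and Bcl11b 34.1%. Over the genome the share was 29.0%. The length held by a single liver was 0.0898% in Ebf1 and at most 3.78% in the other 3 windows, against 16.9% over the genome. The windows were chosen for wide cover, which favours shared length, so these shares are descriptions. The longest unbroken stretch under islands in all 7 livers was 89.2 kb in Runx1, 70.0 kb in Ebf1, 46.0 kb in Gata3 and 42.8 kb in Bcl11b, the last being the dense end of the chain up to the limit of its window.

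**Figure D4:**
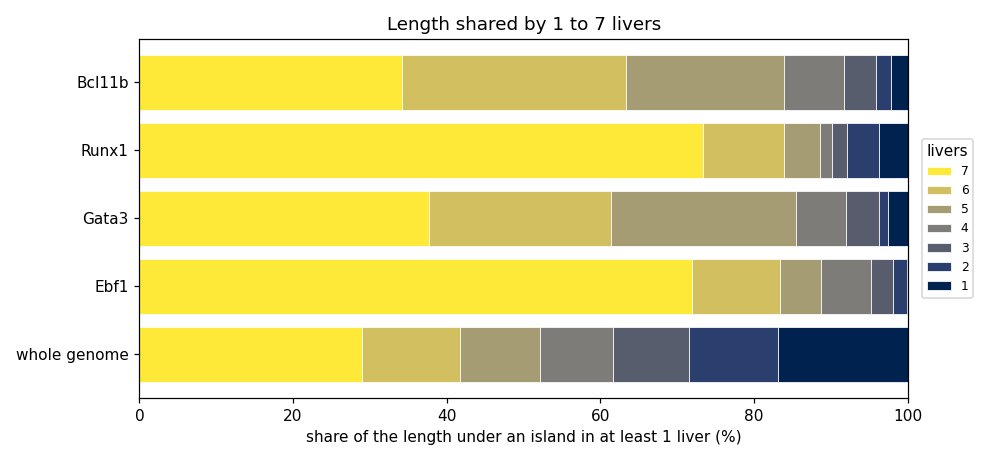
Share of the covered length (x axis, percent of the length under an island in at least 1 liver) that was under islands in 7, 6, 5, 4, 3, 2 or 1 livers, for the 4 windows and the whole genome. Runx1 and Ebf1 have 73.3 and 72.0% in all 7 livers, Gata3 and Bcl11b 37.7 and 34.1%, and the genome 29.0%.

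The pair of livers with the best agreement crossed treatments in Ebf1 and Gata3 and lay within TCPOBOP in Runx1 and Bcl11b. Pairs across treatments outnumber pairs within, and their means were not compared. The Jaccard index, shared length divided by the length in either list, was highest in Ebf1 for TCPOBOP replicate 3 with vehicle replicate 3 (0.949) and in Gata3 for TCPOBOP replicate 2 with vehicle replicate 3 (0.881). In Runx1 it was highest for TCPOBOP replicates 1 and 3 (0.918) and in Bcl11b for TCPOBOP replicates 2 and 3 (0.796). The lowest index, 0.57, was found in Gata3 for TCPOBOP replicate 4 with vehicle replicate 2.

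The longest merged region of each window was set beside the 549 merged regions of at least 200 kb with islands in all livers. These 4 regions held different places. Gene positions in mm9 were not available, so a region may not hold the gene that names its window. The regions of the Bcl11b window (1526 kb) and the Runx1 window (964 kb) ranked 1 and 2 by length. That of Ebf1 (392 kb) ranked 79 and that of Gata3 (238 kb) 375. By number of islands, Bcl11b had 1.91 per 100 kb in a liver (rank 133) and Gata3 2.16 (rank 35), against a median of 1.58. Ebf1 had 0.984 (rank 477) and Runx1 1.21 (rank 416). Islands were counted here and not breaks, and the 2 need not give the same order when regions differ in length. By the density of the densest island, averaged over livers, Gata3 ranked 10 of 549, Ebf1 168, Runx1 190 and Bcl11b 414. This average took the score per 400 bp itself and not its percentile, so lists with higher scores weigh more. The Bcl11b value leaves out its dense last island, which falls in the neighbouring merged region from 109105201 to 109317200.

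**Figure D5:**
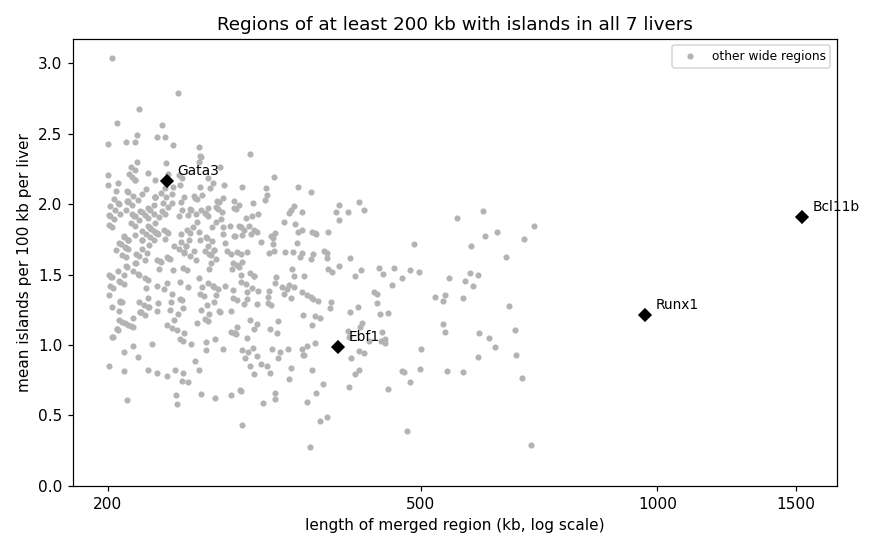
Merged regions of at least 200 kb with islands in all 7 livers (549 regions), by length in kb on a log x axis and mean number of islands per 100 kb per liver on the y axis. Black diamonds mark the longest merged region of each of the 4 windows, which may not hold the gene that names the window. Those of the Bcl11b and Runx1 windows are the longest, at 1526 and 964 kb. That of the Gata3 window has the most islands per 100 kb of the 4, at 2.16.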

How the data were processed

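The mark H3K27me3 was measured by ChIP-seq, 1 library per liver, in 4 livers after TCPOBOP and 3 after vehicle. Per the submitters' processing notes, Bowtie2 2.3.2, SICER 1.1 and mm9 were used. The authors deposited 1 list of islands per liver with a score for each island. The names of the lists record 400 bp as the window, 2400 bp as the largest gap bridged and 100 as the E-value. Controls, duplicates and read numbers are not given in the sources used here, so depth is unknown.

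Cover, islands and score percentile per window were compared with two-sided exact permutation tests over 35 splits. Cover of merged regions with an island in at least 2 livers and unequal cover was fitted with limma 3.58.1 (R 4.3.3; trend and robust variance) and adjusted by Benjamini-Hochberg over all regions. Python 3.11.15 and NumPy 2.4.6 were used. In a simulation that took the livers' own cover values, the fit missed regions emptied in all TCPOBOP livers, so its lack of calls carries little weight. Windows, genes and comparisons were chosen with earlier results of these data known. Named genes are the 4 members. Other blood regulators were to be counted only with an mm9 annotation and are not analysed here. Livers are separate animals, and same-numbered livers were not treated as pairs.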

Additional observations from a re-analysis of the deposited data

Results flagged for a closer look

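A search for single TCPOBOP livers that stood apart covered 20 measures and found 1 case, where chance gives about 1 in 20. The best Ebf1 island of TCPOBOP replicate 2 had a score percentile of 96.8, against 99.2, 99.4 and 99.5 in TCPOBOP replicates 1, 3 and 4. Its window was split into 6 islands, against 5, 4 and 4 in those livers.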

How the results depend on the processing

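Of 136 alternative values for the 12 window comparisons, 107 kept direction and stayed on the same side of 0.05, 6 were exactly 0 (all of them island counts), 23 changed sign and 0 passed the test; the smallest p possible was 0.1 or 0.0667 with 6 livers and 0.25 with the replicate block. The cause of the changes was not tested. With only the islands above the median score of each list, cover differed by 8.01 points for Bcl11b (exact permutation p = 0.286). It differed by 11.3 points for Gata3 (exact permutation p = 0.2), 7.71 for Ebf1 (exact permutation p = 0.343) and -0.0133 for Runx1. Island numbers then differed by 5.25 for Bcl11b (exact permutation p = 0.0571), -0.25 for Runx1 and 0.667 for both Gata3 and Ebf1. With gaps under 5 kb joined, Runx1 had -0.0833 islands. Per 1000 islands of a list, an alternative added after the data were seen, the difference was -0.00305 for Bcl11b and -0.0929 for Runx1. By density, rank differences were 4.35 points for Bcl11b, -3.82 for Runx1, 0.611 for Gata3 and -3.26 for Ebf1. With the widest merged region in place of its window, Ebf1 cover differed by -0.298 points.

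Leaving out 1 liver in turn gave cover differences of 1.68 to 6.48 points for Bcl11b, -1.66 to 2.08 for Runx1, -5.1 to 3.27 for Gata3 and 0.8 to 6.18 for Ebf1. Island differences ran from 0.5 to 7 for Bcl11b, -1.25 to 1.75 for Runx1, 0 to 1 for Gata3 and -1.25 to 1.25 for Ebf1. Rank differences ran from -0.562 to 1.09 points for Bcl11b, 0.238 to 0.468 for Runx1, -0.405 to 0.933 for Gata3 and -0.962 to 1.71 for Ebf1. In limma, the longest regions had ranges of 2.54 to 6.80, -1.74 to 2.14, -7.15 to 2.69 and -2.53 to 2.12 points in the same order of genes.

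Limma called 13 regions without trend and robust variance and 1 with no filter on the number of livers, none of them the longest region of a window, and 0 under each other setting. Deviations of same-numbered livers from their group means had correlations of 0.0269, 0.278 and 0.0693. Differently numbered livers were not compared in this way, so these values have no baseline and cannot decide whether livers were paired. Both livers numbered 2 had a total cover of 537 Mb, against 583 to 605 Mb in the other lists. The labels name no pairs, so the numbers were not read as pairs. With the replicate block limma called 0 regions, and the Bcl11b difference was 5.97 points (SE 7.22).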
